A study of Mus musculus with 8 samples.

Results

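The genes described here are 9 genes that mark where a T cell travels and how long it lives: Ccr7, S1pr1, Klf2, Il7r, Tcf7 and Lef1, called recirculation and memory genes here, and Cxcr6, Itgae and Cd69, called residency genes. They were chosen by name with earlier results of these data known, so the shares of all genes given beside their counts are no test. Each had a row in all 8 count tables, and they are 9 of the 24405 genes that the tables list. Hearts, livers and kidneys of BALB/c mice had been transplanted into fully mismatched C57Bl6/J recipients with no immunosuppression, and blood and graft were taken on day 7. Each group was 1 Microwell-seq library: peripheral blood mononuclear cells (PBMC) and tissue-infiltrating lymphocytes (TIL) for heart, liver and kidney, and parenchymal cell suspensions (PC) for liver and kidney. All mice were labelled male, 8 weeks old and BALB/c, also where the cells came from the recipient's blood. Hearts and kidneys had been placed heterotopically and livers orthotopically, TIL had been enriched on a Ficoll gradient, and the methods name a pair of recipients per organ without saying whether they were pooled. With 1 library per group no test was made, and every interval below is a 95% interval that covers counting error only, not the spread between mice.

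T cells that patrol the body leave the blood through lymph nodes and return to it. CCR7 draws them into the node along CCL19 and CCL21, S1PR1 lets them out again along a gradient of sphingosine-1-phosphate, and the transcription factor KLF2 keeps S1pr1 switched on. TCF-1 (Tcf7) and LEF1 maintain naive and memory cells with self-renewing capacity, and the IL-7 receptor (Il7r) carries their survival signal. T cells that settle in a tissue lower CCR7, S1PR1 and KLF2. CXCR6 holds them near cells that bear CXCL16, CD103 (Itgae) with its partner beta 7 integrin binds E-cadherin on epithelium, and CD69 pulls S1PR1 off the cell surface but is also an early sign of activation.

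CD8 T cells were taken as cells of at least 500 UMIs with at least 2 UMIs of Cd8a and Cd8b1 together. There were 329 such cells in the heart PBMC library, 183 in liver PBMC and 280 in kidney PBMC, 2581 in heart TIL, 1768 in liver TIL, 755 in kidney TIL, 4803 in liver PC and 218 in kidney PC, out of 795 to 10000 cells per library. All 8 T cell markers were detected in each of the 8 gated populations, and a UMI of Cd3d, Cd3e or Cd3g was present in 74.2% (heart PBMC) to 95.5% (liver PC) of the cells. All 8 were also detected over all cells of each library, so detection alone does not speak for the gate. In kidney PC the markers summed to 6634 CPM in gated cells and 6261 over all cells, with overlapping intervals, and 7 myeloid genes to 10445 and 11519 CPM. These markers hardly set the gated cells of kidney PC apart from their library. Elsewhere the T marker sum was higher in gated cells, from 7932 against 7033 CPM (kidney TIL) to 5672 against 890 (liver PBMC). From 27.6% (liver PC) to 67.4% (kidney PC) of the gated cells held exactly 2 CD8 UMIs, the least the gate allows. The median depth of these cells ran from 609.5 UMIs in kidney PC to 1698 in liver PC, so that shares of cells with a UMI are given after thinning every cell to 500 UMIs, and levels are given as CPM, UMIs of a gene per 1000000 UMIs summed over the gated cells of a library. Any pair of libraries shared 123 to 617 of their barcodes, and at most 37 of these were CD8 T cells in both.

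The organ labels of heart and liver TIL ran against the organ genes in them. Hepatocyte genes, 6 in all, summed to 375 CPM in CD8 T cells of the library labelled heart TIL, with all 6 detected, and to 1.04 CPM in the one labelled liver TIL, with 5 at 0. Cardiomyocyte genes, 7 in all, summed to 138 CPM in the one labelled liver TIL, with 6 detected, and to 31.0 CPM from Myl4 alone in the one labelled heart TIL. Both libraries are therefore named by their labels, and the ratios of the members and the list counts are also given with the labels exchanged. RNA of other cells was present in the CD8 T cells of every library. The summed level of 6 neutrophil genes was 20523, 4521 and 1702 CPM in heart, liver and kidney PBMC, against 568 and 328 CPM in the libraries labelled heart and liver TIL, 714 in liver PC, 11.5 in kidney TIL and 21.0 in kidney PC. That of 7 myeloid genes ran the other way in kidney (900 CPM in PBMC, 3147 in TIL and 10445 in PC) and was 5513 to 7964 CPM in the libraries of heart and liver. Haemoglobin genes lay between 1.85 CPM (liver PC) and 37348 CPM (library labelled liver TIL), with 18186 CPM in kidney PC and 2219 in kidney PBMC. The part of this RNA in the results was not tested.

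Counting only comparisons with at least 20 UMIs of a gene, Ccr7 was at least 2-fold lower in CD8 T cells of all 5 graft libraries than in those of blood of the same organ. S1pr1, Klf2 and Tcf7 were so in 4 each, Il7r in 3 and Lef1 in 2. Cxcr6 was the member with higher levels in all 5 graft libraries than in the blood of the same organ. The 5 libraries, also called grafts below, come from 3 organs. In liver and in kidney, TIL and PC are set against the same PBMC library, so the 5 comparisons are not independent. These tallies go by the labels. With those of heart and liver TIL exchanged, Ccr7 and Il7r fell short of 2-fold in heart. Ccr7, S1pr1, Klf2 and Il7r, 4 of the 9 members, stood higher in each of the 3 PBMC libraries than in any of the 5 graft libraries, an order that 3.51% of the 12096 genes with at least 20 UMIs over the 8 libraries showed. No member stood lower in all PBMC libraries than in all graft libraries, an order that 7.84% of genes showed. With the libraries labelled heart TIL and liver TIL left out, the number of members that did not overlap was 5, the added one being Cd69. For this and the settings that follow, the share of all genes in that order was not computed. The 3.51% holds for the main setting with 8 libraries, so these counts are not set against it. The same 4 members did not overlap when a CD3 UMI was required or when barcodes found in more than 1 library were left out, and Tcf7 and Cd69 joined them when only cells without a Gzmb UMI were taken. When the gate and the sums were applied to thinned counts the number was 2 (Klf2 and Lef1), so that Ccr7, S1pr1 and Il7r then overlapped.

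Organ by organ, a member was called lower or higher at a 2-fold difference in CPM (with 1 CPM added to both), where it had at least 20 UMIs over both libraries of the comparison. In heart TIL 4 of the 8 members with that many UMIs were called lower, where 8.07% of all genes were, and none of the 8 was called higher, where 19.2% of all genes were. In the library labelled liver TIL 6 of 8 members were lower (8.95% of all genes) and 1 was higher (14.3%). In liver PC, measured against the same PBMC library, 6 of 8 were lower (9.0%) and none of the 8 was higher (9.30%). In kidney TIL 4 of 6 members were lower (10.1%) and 1 was higher (11.3%), and in kidney PC, measured against the same kidney PBMC library, 4 of 5 were lower (16.0%) and none of the 5 was higher (12.9%). The median log2 ratio of all genes tested was 0.30 in heart TIL, 0.11 in the library labelled liver TIL, 0.05 in liver PC, 0.11 in kidney TIL and 0.03 in kidney PC, and among the 6 recirculation genes it was −1.68, −1.65, −1.87, −1.59 and −1.78 in the same order, over 6, 6, 6, 4 and 3 genes with enough UMIs. With the labels of heart and liver TIL exchanged, 2 members were lower in heart (Klf2 and S1pr1), where 7.48% of all genes were, and 6 in liver (12.0%).

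**Figure D1:**
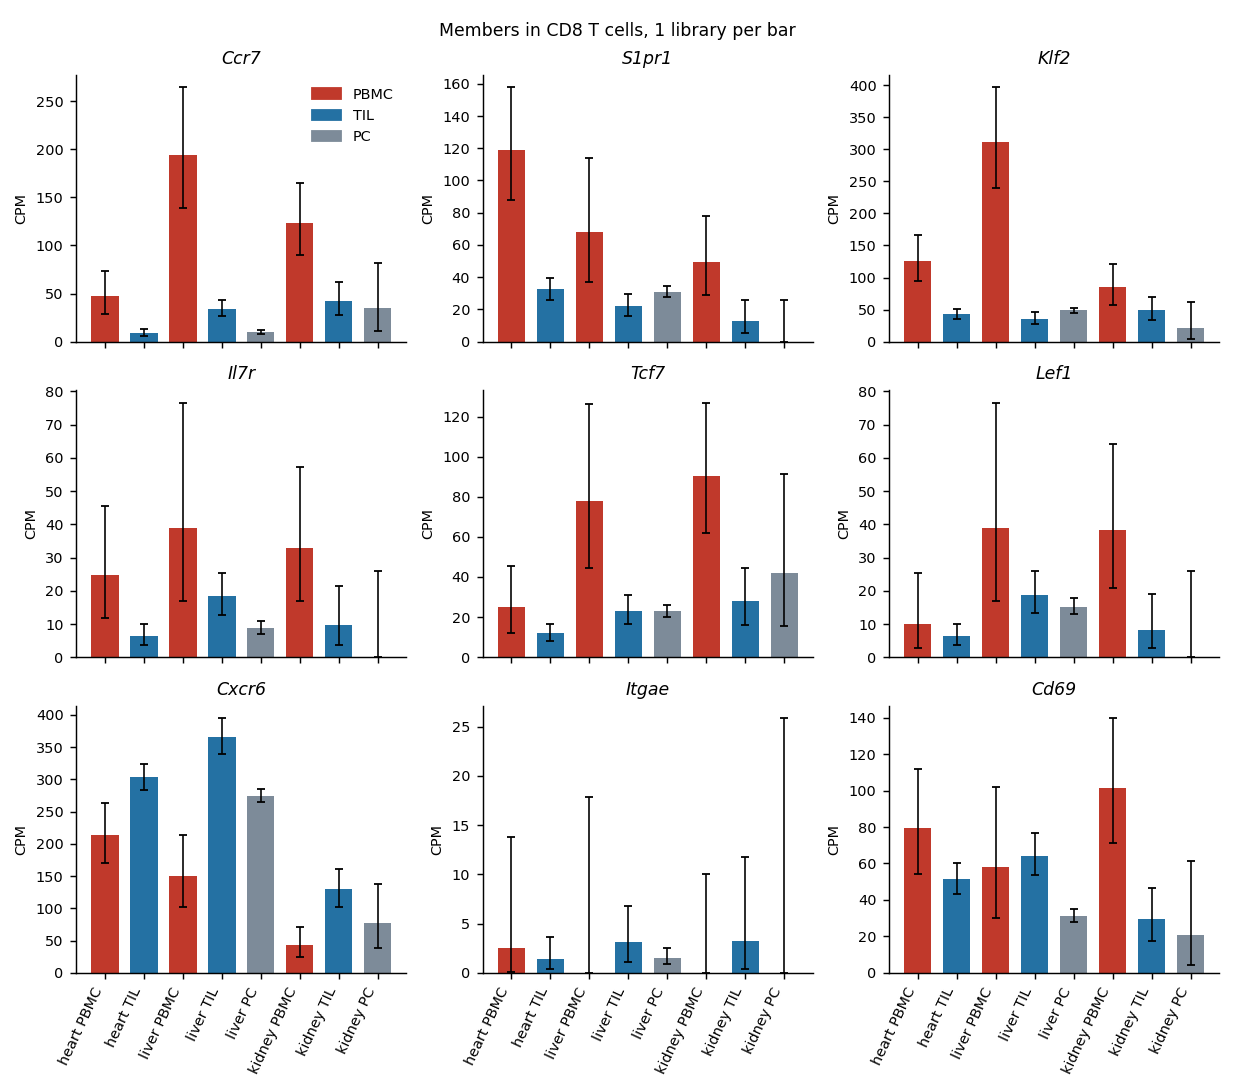
CPM of each of the 9 genes (y axis, linear from 0) in CD8 T cells of the 8 libraries (x axis); each bar is 1 library, coloured by compartment, and the error bars are exact Poisson 95% intervals of the UMI sum. Ccr7, S1pr1, Klf2 and Il7r are higher in the 3 PBMC bars than in any graft bar, Cxcr6 reaches 366 CPM in the library labelled liver TIL, and Itgae stays at or under 3.27 CPM.

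Ccr7, the lymph node homing receptor (ENSMUSG00000037944, GRCm38 chr11:99144196-99155077, minus strand), stood at 47.1, 194 and 123 CPM in CD8 T cells of heart, liver and kidney PBMC, from 19, 40 and 45 UMIs. In the grafts it stood at 9.14 CPM in the library labelled heart TIL, 34.0 in the one labelled liver TIL, 10.2 in liver PC, 42.5 in kidney TIL and 35.0 in kidney PC. The lowest blood library, heart, was close to the highest graft library, kidney TIL, and their intervals overlapped (28.4 to 73.6 and 27.8 to 62.3 CPM), while liver PBMC was above kidney PBMC and kidney PBMC above heart PBMC beyond counting error. Against blood of the same organ Ccr7 was 4.74-fold lower in heart TIL (log2 −2.25, interval −3.28 to −1.43), 5.59-fold lower in the library labelled liver TIL (−2.48, −3.11 to −1.91) and 17.4-fold lower in liver PC (−4.12, −4.79 to −3.69). In kidney the difference was 2.85-fold in TIL (−1.51, −2.29 to −0.81) and 3.45-fold in PC (−1.78, −3.50 to −0.49, from 5 UMIs in PC). With the labels exchanged the value was −0.46 (−1.23 to 0.35) in heart, no longer past 2-fold, and −4.27 in liver TIL. The share of CD8 T cells with a Ccr7 UMI at 500 UMIs per cell was 2.74%, 7.65% and 6.43% in heart, liver and kidney PBMC and 0.48% to 1.99% in the grafts. Blood B cells, which also use CCR7, held a Ccr7 UMI in 5.49% (heart) and 8.68% (liver) of cells, and myeloid cells in 1.20%, 2.30% and 3.77% of cells in the 3 PBMC libraries. Over the 8 libraries the Ccr7 level of myeloid cells was lowest in a graft library (2.86 CPM, liver PC) and highest in a blood library (84.9 CPM, kidney PBMC). The myeloid gate takes cells without a UMI of the CD3, CD8, Cd4 or B marker genes, but other T cell genes (Trac, Trbc1, Trbc2, Lck or Cd28) were found in 14.7% (liver PBMC) to 73.3% (kidney PC) of these cells at 500 UMIs, so they are not free of T cell RNA. Summed over 4 B cell markers, the gated CD8 T cells carried 236, 301 and 21.9 CPM in heart, liver and kidney PBMC against 4.91 to 46.2 CPM in the grafts, and its part in the Ccr7 difference was not tested in heart and liver. In kidney TIL the Ccr7 ratio was −1.46 (−2.48 to −0.55) with cells holding B or myeloid UMIs left out.

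S1pr1, the egress receptor (ENSMUSG00000045092, chr3:115710433-115715072, minus strand), stood at 119, 68.0 and 49.2 CPM in heart, liver and kidney PBMC. It stood at 32.4 CPM in the library labelled heart TIL, 21.9 in liver TIL as labelled, 31.0 in liver PC and 13.1 in kidney TIL, and no UMI was found in kidney PC, where 3 UMIs would make 21.0 CPM. Myeloid cells held 0 to 18.6 CPM of S1pr1. The order was heart, liver and kidney blood first and then the grafts, but of neighbours in that order only liver PC and the library labelled liver TIL differed beyond counting error. S1pr1 was 3.60-fold lower in heart TIL (log2 −1.85, −2.40 to −1.34), 3.01-fold in the library labelled liver TIL (−1.59, −2.53 to −0.64), 2.16-fold in liver PC (−1.11, −1.90 to −0.25) and 3.57-fold in kidney TIL (−1.83, −3.32 to −0.64). In kidney PC it was at least 2.34-fold lower, with 18 UMIs in PBMC and 0 in PC, under the 20 UMIs set for a call. With the TIL labels exchanged S1pr1 was lower by the same rule in both organs (log2 −2.39 in heart and −1.05 in liver). The 2 liver values turned to 0.28 (TIL) and 0.80 (PC) when the gate and the sums were applied to thinned counts, where liver PBMC held 85 gated cells and 1 S1pr1 UMI.

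Klf2, which drives S1pr1 (ENSMUSG00000055148, chr8:72319033-72321656, plus strand), stood at 127, 311 and 84.8 CPM in heart, liver and kidney PBMC, and between 21.0 (kidney PC) and 49.1 CPM (kidney TIL) in the 5 graft libraries. Liver PBMC was above the other 2 blood libraries beyond counting error, and no neighbours among the 5 graft libraries differed beyond counting error. In myeloid cells Klf2 stood at 158, 367 and 144 CPM in blood and at 0 to 48.9 CPM in the grafts. In CD8 T cells it was 8.42-fold lower in the library labelled liver TIL (log2 −3.07, −3.62 to −2.59), 6.29-fold in liver PC (−2.65, −3.06 to −2.28), 2.90-fold in heart TIL (−1.54, −2.04 to −1.06) and 3.90-fold in kidney PC (−1.96, −4.37 to −0.33, from 3 UMIs). Kidney TIL missed the 2-fold mark (−0.78, −1.56 to −0.02). Exchanged labels gave −1.78 in heart and −2.83 in liver TIL. Klf2 was also found in other blood cells: the share of CD8 T cells with a UMI at 500 UMIs was 6.99%, 13.7% and 5.71% in heart, liver and kidney, against 8.03%, 17.0% and 4.40% of myeloid cells and 7.84% and 20% of B cells in heart and liver. In heart and liver blood the CD8 share lay at or under the share in myeloid cells of the same library, so the share does not set CD8 T cells apart there. The grafts showed 0.92% to 2.52% in CD8 T cells and 0% to 2.78% in myeloid cells.

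Promoter sequence was looked up because several recirculation genes were lower in the grafts and Cxcr6 was higher. RefSeq start sites of build GRCm38.p6 matched 5 of the 9 members (Klf2, Il7r, Tcf7, Lef1 and Cxcr6), and 3 are shown, the upstream part from 250 to 31 bases before the start. They are Klf2, the factor that acts on S1pr1, Lef1, a Wnt pathway factor, and Cxcr6, the member that was higher. The windows are chr8:72318812-72319031 (plus strand), chr3:131110047-131110266 (plus strand, inside the antisense gene Gm43352) and chr9:123806227-123806446 (plus strand, inside the body of Fyco1, a gene on the other strand). Capitals mark any of 3 letter strings searched on both strands, which are CACCC (the core bound by KLF factors), CTTTG (the core bound by TCF and LEF factors) and GGGCGG (the GC box).
Klf2: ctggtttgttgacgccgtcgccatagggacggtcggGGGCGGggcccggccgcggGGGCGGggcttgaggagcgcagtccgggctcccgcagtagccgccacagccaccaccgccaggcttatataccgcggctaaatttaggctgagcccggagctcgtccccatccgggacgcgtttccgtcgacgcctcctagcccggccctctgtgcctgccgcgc
Lef1: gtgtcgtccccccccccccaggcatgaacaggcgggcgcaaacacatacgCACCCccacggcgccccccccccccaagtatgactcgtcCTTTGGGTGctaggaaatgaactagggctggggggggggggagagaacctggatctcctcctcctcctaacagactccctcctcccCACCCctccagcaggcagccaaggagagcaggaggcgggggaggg
Cxcr6: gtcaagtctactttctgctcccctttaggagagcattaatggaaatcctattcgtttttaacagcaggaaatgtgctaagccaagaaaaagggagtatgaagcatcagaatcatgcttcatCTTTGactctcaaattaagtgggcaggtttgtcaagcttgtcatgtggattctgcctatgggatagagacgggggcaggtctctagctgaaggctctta
Klf2 held 2 GC boxes and neither of the other strings, Lef1 held 3 CACCC and 1 CTTTG, which overlaps 1 of the 3, and Cxcr6 held 1 CTTTG. RefSeq gives 4 windows for Lef1, of which the most upstream is shown; the other 3 hold 1 to 3 CACCC, 1 to 3 CTTTG and at most 1 GC box. Of 32851 RefSeq windows of the same 220 bases, 47.8% held CACCC, 44.9% CTTTG and 28.5% GGGCGG. The GC content was 71.4% in Klf2, 67.3% in Lef1 and 43.6% in Cxcr6, against a median of 51.8% over all windows. These are matches of letters and say nothing of binding in these cells.

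Il7r, Tcf7 and Lef1, the survival receptor and the factors of naive and memory cells, were sparse. Il7r (ENSMUSG00000003882, chr15:9505788-9530176, minus strand) stood at 24.8, 38.9 and 32.8 CPM in heart, liver and kidney PBMC, from 10, 8 and 12 UMIs, and at 6.33, 18.3 and 9.81 CPM in heart, liver and kidney TIL as labelled, 8.84 in liver PC and 0 in kidney PC. All 3 blood libraries were above all 5 grafts, yet no neighbours in that order differed beyond counting error. It was 3.52-fold lower in heart TIL (log2 −1.82, −3.16 to −0.69), 2.07-fold in the library labelled liver TIL (−1.05, −2.22 to 0.23) and 4.05-fold in liver PC (−2.02, −3.18 to −0.88). Exchanging the labels gave −0.42 in heart and −2.44 in liver TIL. Myeloid cells of the same libraries held 2.86 to 25.5 CPM of Il7r, and in the library labelled liver TIL (16.8 CPM) nearly as much as CD8 T cells.

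Tcf7 (ENSMUSG00000000782, chr11:52252371-52283014, minus strand) stood at 24.8, 77.7 and 90.3 CPM in heart, liver and kidney PBMC. In the grafts the level was 12.0 and 23.0 CPM in the libraries labelled heart and liver TIL, 22.9 in liver PC, 27.8 in kidney TIL and 42.0 in kidney PC. Blood and grafts overlapped, since heart PBMC lay among the grafts. Myeloid cells held 0 to 17.0 CPM of Tcf7 in the other libraries and 48.4 CPM in kidney PC, from 3 UMIs, where the CD8 level is therefore not above that background. Tcf7 was 3.28-fold lower in the library labelled liver TIL (−1.71, −2.61 to −0.83), 3.29-fold in liver PC (−1.72, −2.49 to −0.93), 3.17-fold in kidney TIL (−1.66, −2.64 to −0.81) and 2.12-fold in kidney PC (−1.09, −2.65 to 0.17). Heart TIL was just short of 2-fold (−0.99, −2.10 to 0.13). Exchanged labels gave −0.11 (−1.12 to 1.05) in heart and −2.60 in liver TIL.

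Lef1 (ENSMUSG00000027985, chr3:131110471-131224356, plus strand) stood at 9.92, 38.9 and 38.3 CPM in heart, liver and kidney PBMC, from 4, 8 and 14 UMIs, and between 0 (kidney PC) and 18.8 CPM (library labelled liver TIL) in the grafts. Myeloid cells held 0 to 12.2 CPM, the highest in kidney TIL from 1 UMI and above its CD8 T cells (8.18 CPM). Lef1 was 2.01-fold lower in the library labelled liver TIL (−1.01, −2.18 to 0.27) and 2.47-fold in liver PC (−1.30, −2.37 to −0.12), and heart TIL did not reach 2-fold (−0.58, −2.25 to 1.37). With the labels exchanged Lef1 turned direction in heart (0.86, −0.56 to 2.87) and was at −2.44 in liver TIL. In kidney TIL Il7r and Lef1 had 18 and 19 UMIs over both libraries, under the 20 set for a call, with log2 ratios of −1.65 and −2.10. In kidney PC, where both were at 0, Il7r was at least 1.56-fold lower and Lef1 at least 1.82-fold lower. When barcodes with at least 200 UMIs were taken, which raised kidney CD8 T cells to 480 in PBMC, 1660 in TIL and 1201 in PC, all 6 recirculation genes were more than 2-fold lower in kidney TIL, from −1.08 for Klf2 to −2.06 for Lef1. In that setting 10.2% of all genes were lower in kidney TIL. An antisense gene lies over part of Tcf7 (A630014C17Rik) and of Lef1 (Gm43352), and Fyco1 on the other strand spans Cxcr6; the strand setting of the counting is not given in the sources used here.

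**Figure D2:**
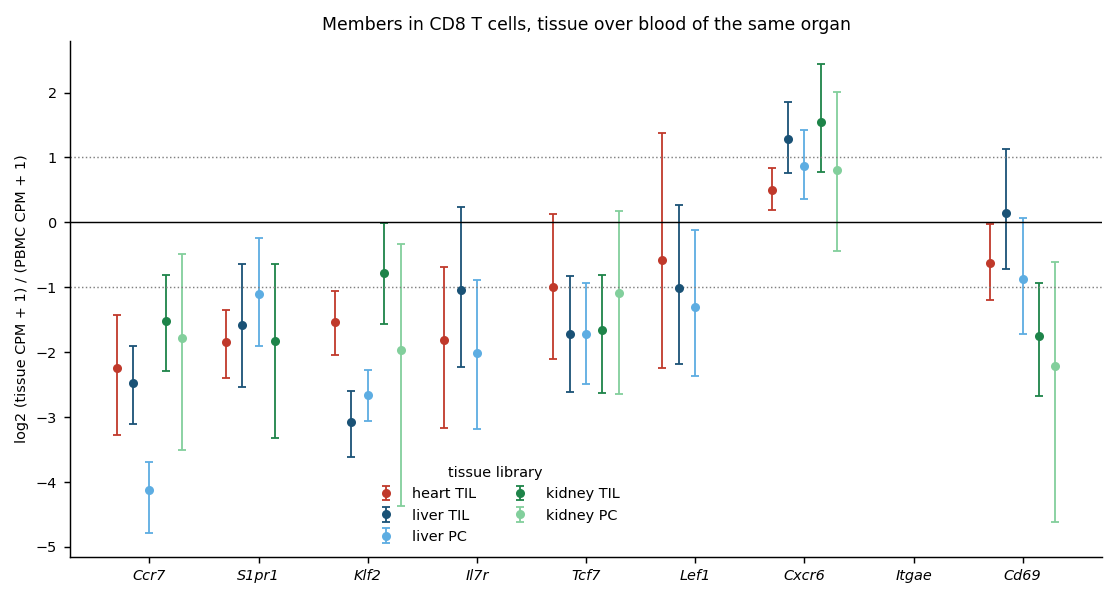
Log2 ratio of CPM (1 CPM added) in CD8 T cells of a graft library over PBMC of the same organ (y axis) for each gene (x axis); each point is 1 pair of libraries with at least 20 UMIs, the bars are 95% counting intervals and dotted lines mark 2-fold. The recirculation genes lie below 0 throughout, from −0.58 (Lef1, heart TIL) to −4.12 (Ccr7, liver PC), and Cxcr6 lies above 0, from 0.51 to 1.54.

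Cxcr6, the receptor for CXCL16 (ENSMUSG00000048521, chr9:123806475-123811760, plus strand), stood at 213, 151 and 43.8 CPM in heart, liver and kidney PBMC. It stood at 303 and 366 CPM in the libraries labelled heart and liver TIL, 275 in liver PC, 129 in kidney TIL and 77.1 in kidney PC. Blood and grafts overlapped across organs, since heart and liver blood were above both kidney grafts, but within each organ the graft was higher. The first 3 places in the order, the library labelled liver TIL, the one labelled heart TIL and liver PC, each differed from the next beyond counting error. Cxcr6 was 2.91-fold higher in kidney TIL (log2 1.54, 0.77 to 2.44) and 2.42-fold in the library labelled liver TIL (1.28, 0.76 to 1.85). It was 1.82-fold higher in liver PC (0.86, 0.36 to 1.43), 1.42-fold in heart TIL (0.51, 0.19 to 0.84) and 1.74-fold in kidney PC (0.80, −0.44 to 2.01, from 11 UMIs). Exchanged labels gave 0.78 in heart and 1.01 in liver. With cells holding a UMI of a cycling gene left out, the ratio was 1.07 (0.55 to 1.64) in heart TIL, 2.28 (1.30 to 3.53) in liver TIL as labelled and 2.0 (1.03 to 3.24) in liver PC, and with the labels exchanged 1.24 in heart and 2.11 in liver TIL. In kidney it was then 3.04 (0.45 to 8.48) in TIL and 2.55 (−0.54 to 8.18) in PC, both against 1 blood UMI. The summed level of the 8 T cell markers was also higher in the gated cells of each graft library but kidney PC. In heart it was 6098 CPM in PBMC and 8849 in TIL as labelled. In liver it was 5672 CPM in PBMC, 7008 in TIL as labelled and 7999 in PC. In kidney it was 7303 CPM in PBMC, 7932 in TIL and 6634 in PC. The part of this difference in the Cxcr6 ratios was not tested.

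A Cxcr6 UMI was found in 9.73%, 8.20% and 1.79% of CD8 T cells of heart, liver and kidney PBMC at 500 UMIs per cell. In the grafts it was found in 14.1% and 15.8% of cells in the libraries labelled heart and liver TIL, 12.9% in liver PC, 6.36% in kidney TIL and 3.67% in kidney PC. Myeloid cells of the same libraries held one in 0.98%, 0.40% and 0.63% in blood and in 1.53% to 4.63% in the grafts, where kidney PC (2.97%) came closest to its CD8 T cells. The CD8 share was above the myeloid share in all 8 libraries, with overlapping intervals in those of kidney. Without thinning, the CD8 shares were 5.36% to 17.3% in blood and 4.59% to 35.9% in the grafts.

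**Figure D3:**
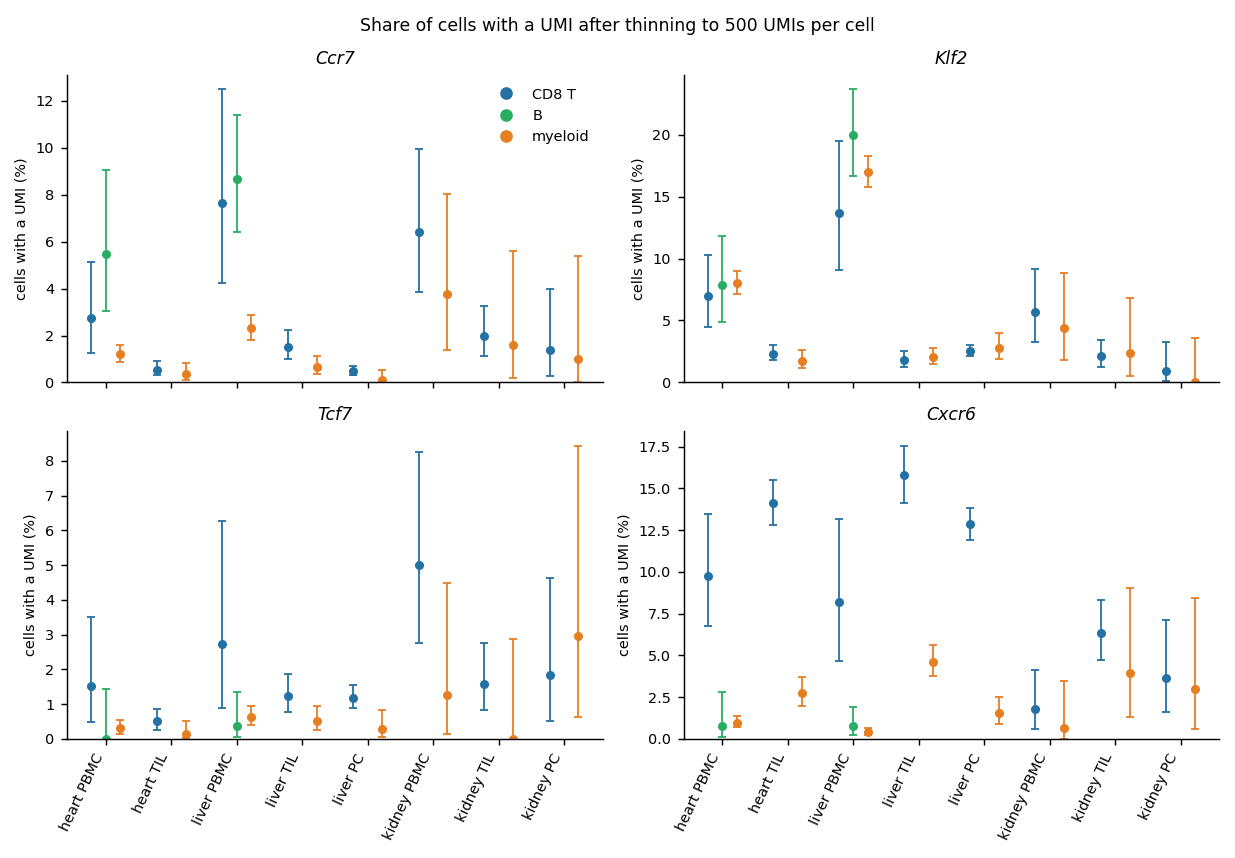
Share of cells with a UMI of Ccr7, Klf2, Tcf7 or Cxcr6 after thinning to 500 UMIs (y axis, percent, linear from 0) by library (x axis) in CD8 T, B and myeloid cells with at least 50 cells; bars are exact binomial 95% intervals. In PBMC of heart and liver Klf2 is as frequent in myeloid cells (8.03% and 17.0%) as in CD8 T cells (6.99% and 13.7%), whereas Cxcr6 is at 0.40% to 4.63% in myeloid cells.

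Cxcl16, the ligand of CXCR6, was counted in graft cells and near 0 in blood. In myeloid cells it stood at 2.07, 7.65 and 17.0 CPM in heart, liver and kidney PBMC, the last from 2 UMIs, and at 271 and 566 CPM in the libraries labelled heart and liver TIL, 323 in liver PC, 708 in kidney TIL and 355 in kidney PC. Every graft library was above every blood library. The myeloid gate does not leave out neutrophils. The 6 neutrophil genes summed to 39485, 11109 and 12019 CPM in myeloid cells of heart, liver and kidney PBMC. In myeloid cells of the grafts they summed to 0 (kidney PC) to 1605 CPM (liver PC). The part of neutrophils in the Cxcl16 difference was not tested. CD8 T cells of the grafts also carried 76.9 to 244 CPM of Cxcl16, with at most 1 UMI in any blood library, below the myeloid level of the same graft library in each of the 5. Over all cells of a library Il7 stood at 0 to 0.37 CPM and Cdh1, the E-cadherin gene, at 0.15 to 2.70 CPM. Ccl19 and Ccl21a, ligands of CCR7, are not among the genes that the count tables list, so no level can be given for them.

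**Figure D4:**
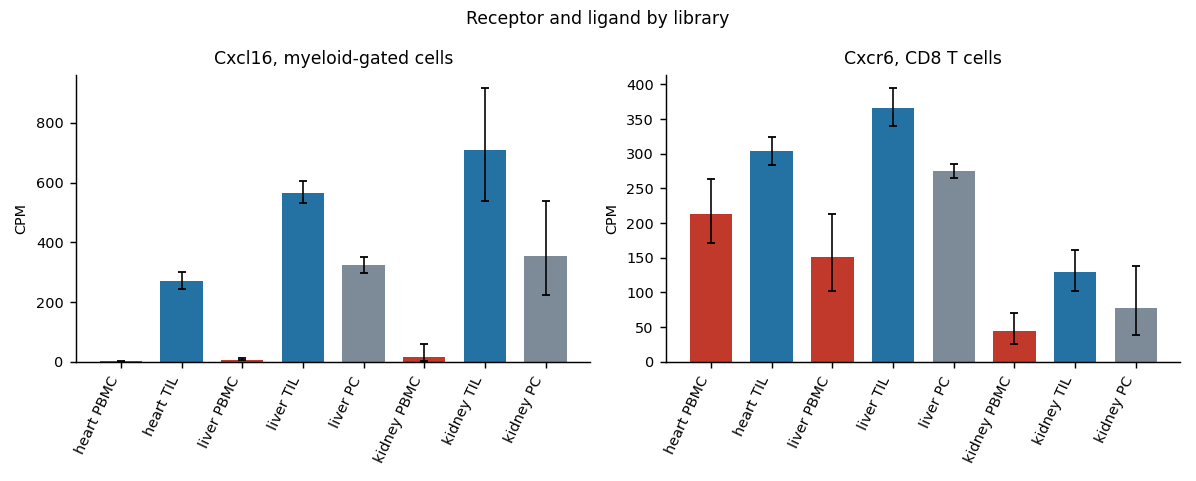
CPM of Cxcl16 in myeloid cells (left) and of Cxcr6 in CD8 T cells (right) by library (x axis); bars start at 0, are coloured by compartment and carry exact Poisson 95% intervals. Cxcl16 lies between 271 and 708 CPM in the 5 graft libraries and between 2.07 and 17.0 in PBMC, while Cxcr6 in heart PBMC (213 CPM) exceeds Cxcr6 in both kidney grafts. Myeloid cells of PBMC carry more neutrophil RNA than those of the grafts.

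Cd69, an activation and retention gene (ENSMUSG00000030156, chr6:129267325-129275436, minus strand), was not called higher in any graft. It stood at 79.4, 58.3 and 101 CPM in heart, liver and kidney PBMC, at 51.4 and 64.3 CPM in the libraries labelled heart and liver TIL, and at 31.3, 29.4 and 21.0 CPM in liver PC, kidney TIL and kidney PC. Kidney grafts were lower than kidney blood, 3.36-fold in TIL (log2 −1.75, −2.68 to −0.93) and 4.64-fold in PC (−2.22, −4.61 to −0.61, from 3 UMIs). The other comparisons stayed within 2-fold: −0.62 (−1.19 to −0.03) in heart TIL, 0.14 (−0.72 to 1.13) in the library labelled liver TIL and −0.88 (−1.72 to 0.07) in liver PC. Exchanged labels gave −0.30 in heart and −0.18 in liver TIL. Myeloid cells held 18.9 to 59.4 CPM of Cd69, in both kidney grafts (36.6 and 32.3 CPM) more than CD8 T cells, from 3 and 2 UMIs.

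Itgae, the gene of CD103 (ENSMUSG00000005947, chr11:73090583-73147446, plus strand), was almost undetected. CD8 T cells held 1, 0 and 0 Itgae UMIs in heart, liver and kidney PBMC, 4, 6 and 2 in heart, liver and kidney TIL as labelled, 16 in liver PC and 0 in kidney PC. The highest level was 3.27 CPM (0.40 to 11.8) in kidney TIL, and the largest population, 4803 cells of liver PC, gave 1.55 CPM (0.89 to 2.52). No comparison reached 20 UMIs, exchanged labels gave 0.25 (−2.71 to 5.86) in heart, and at this depth no difference between blood and graft was detectable. Itgb7, the partner chain of CD103, was counted throughout (115 to 459 CPM) and was called lower in both kidney grafts (−1.39 in TIL and −1.33 in PC) but in none of the other 3 grafts (−0.89 to −0.38). It was also lower in myeloid cells of the grafts. These held 340 CPM of Itgb7 in kidney PBMC against 73.3 in kidney TIL and 96.9 in kidney PC, from 6 UMIs in each graft. In heart and liver they held 240 and 312 CPM in PBMC and 146 to 153 CPM in the grafts. Haspin, a gene on the other strand, lies inside Itgae.

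Within libraries, Cxcr6 went with Gzmb, the granzyme B gene of killer cells, a split that was added after the values were seen. The share of CD8 T cells with a Cxcr6 UMI was 16.0% (11.1 to 22.1) among cells with a Gzmb UMI and 1.41% among those without in heart PBMC, and 13.3% (6.81 to 22.5) against 4.0% (1.10 to 9.93) in liver PBMC. Among graft cells the shares with and without Gzmb were 15.5% and 8.61% in heart TIL as labelled, 18.2% and 12.3% in liver TIL as labelled, 14.8% and 7.05% in liver PC, 8.97% and 5.68% in kidney TIL. The cells with a Gzmb UMI had the higher share in all 7 libraries with at least 50 cells of both kinds, kidney PBMC included (3.13% and 1.09%), and the intervals were apart in heart PBMC, both TIL libraries labelled heart and liver, and liver PC. Among cells with a Gzmb UMI the level of Cxcr6 was 332 CPM in the library labelled heart TIL and 318 CPM in heart PBMC (log2 0.06, −0.28 to 0.42), and among those without it was 190 against 50.8 CPM (1.88, 0.88 to 3.15). With the labels exchanged both ratios were higher in heart, 0.45 (0.11 to 0.82) from 435 CPM with a Gzmb UMI and 2.35 (1.36 to 3.60) from 263 CPM without.

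Ccr7 went the other way in liver and kidney blood, and Tcf7 in kidney blood. In liver PBMC Ccr7 stood at 361 CPM (252 to 502) in the 100 CD8 T cells without a Gzmb UMI and at 45.9 CPM (14.9 to 107) in the 83 cells with one, where Tcf7 stood at 114 (56.7 to 203) and 45.9 CPM (14.9 to 107), with overlapping intervals. In heart PBMC the Ccr7 level was 82.5 CPM (43.9 to 141) without and 24.4 CPM (8.97 to 53.2) with Gzmb, also overlapping, and the share at 500 UMIs was 2.82% and 2.67%. In kidney PBMC the values were 175 (126 to 237) and 23.8 CPM (4.92 to 69.7), and Tcf7 stood at 138 CPM (94.8 to 193) without and at 0 UMIs with Gzmb, among 96 cells (upper limit of the exact interval 3.77%, for cells with a UMI at this depth and not for cells that use the gene). Within cells without a Gzmb UMI, Ccr7 was lower in liver PC (log2 −4.11), the library labelled liver TIL (−3.17), kidney TIL (−1.85) and kidney PC (−2.10), and in heart TIL it was at −2.86 on 19 UMIs, under the 20 set for a call. With the labels exchanged it was −1.06 (−2.06 to −0.01) in heart and −4.98 in liver TIL. In these cells 3 members were lower in heart TIL (10.1% of all genes), 4 in the library labelled liver TIL (9.02%), 6 in liver PC (10.2%), 3 in kidney TIL (9.35%) and 4 in kidney PC (15.3%), or 4 in heart (9.08%) and 3 in liver TIL (8.95%) with the labels exchanged. Within cells with one, Ccr7 was lower in liver PC (−2.60, −4.09 to −1.09) and heart TIL (−1.37, −2.84 to 0.13, from 6 blood UMIs) and fell short of 2-fold in the library labelled liver TIL (−0.57, −1.95 to 1.12). With the labels exchanged it was 0.31 (−0.95 to 1.86) in heart, no longer lower, and −2.26 (−3.84 to −0.61) in liver TIL. Of the members, 6 were lower in liver PC (11.7% of all genes), 3 in heart TIL (7.72%) and 3 in the library labelled liver TIL (8.25%), or 2 in heart (7.33%) and 4 in liver TIL (11.9%) with the labels exchanged. In kidney TIL, where these cells numbered 156 in TIL and 96 in PBMC, only Cxcr6 reached 20 UMIs, so no recirculation gene could be called.

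**Figure D5:**
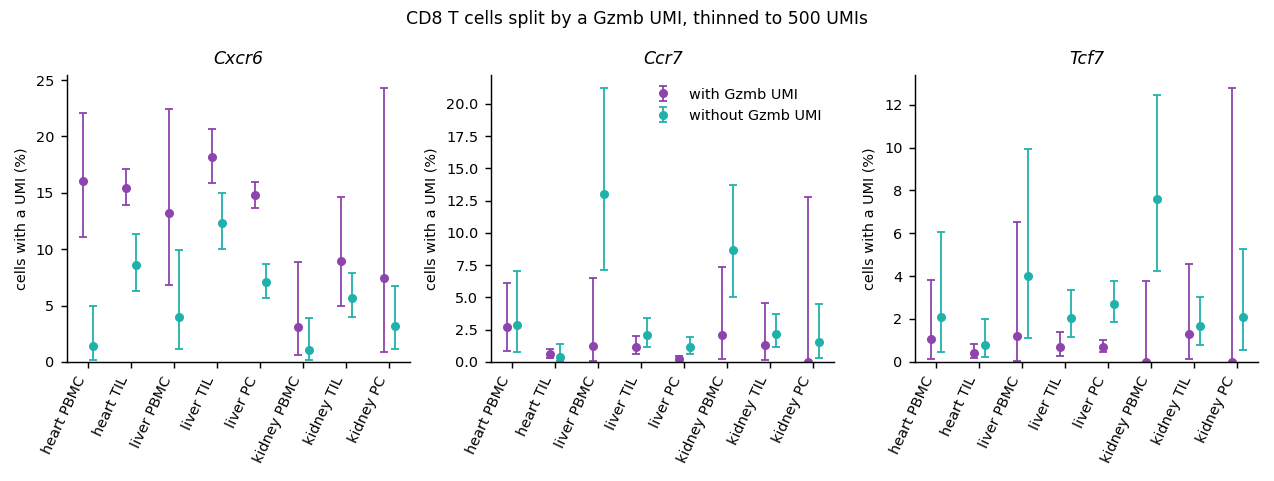
Share of CD8 T cells with a UMI of Cxcr6, Ccr7 or Tcf7 (y axis, percent, each panel from 0) by library (x axis) among cells with and without a Gzmb UMI, after thinning to 500 UMIs; bars are exact binomial 95% intervals. Cxcr6 is more frequent with Gzmb in the 7 libraries with at least 50 cells of both kinds (16.0% against 1.41% in heart PBMC), and Ccr7 is more frequent without Gzmb in liver PBMC (13.0% against 1.20%).

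Cells with a Cd69 UMI were too few to set against S1pr1, at most 73 in a library (liver PC, 1.37% with S1pr1 against 1.82% of the others). Cycling cells, those with a UMI of Mki67, Top2a, Birc5, Ube2c, Cdk1 or Stmn1 at 500 UMIs, made up 22.8% and 26.8% of CD8 T cells in heart and liver PBMC, 56.8% in kidney PBMC and 40.0% to 62.9% in the grafts (38.6%, 38.8%, 72.5% and 56.7% to 77.5% without thinning). Ccr7 was found in 3.77% of 159 cycling and 9.92% of 121 other CD8 T cells of kidney PBMC, with overlapping intervals (1.40 to 8.03 and 5.23 to 16.7).

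CD4 T cells, taken as cells with a Cd4 UMI and a CD3 UMI, numbered 11, 6 and 22 in heart, liver and kidney PBMC and 12 and 1 in kidney TIL and PC, so no comparison of blood with graft was made. They held 2, 0 and 7 Ccr7 UMIs and 1, 4 and 9 Tcf7 UMIs in the 3 blood libraries. In the grafts with over 50 such cells, 90 and 87 cells in the libraries labelled heart and liver TIL and 343 in liver PC, Cxcr6 stood at 344, 454 and 299 CPM and Ccr7 at 9.05, 10.1 and 7.27 CPM. From 52.9% to 60.0% of these cells also held a CD8 UMI, which goes against the label of the gate. Among liver PC cells that passed only 1 of both gates, the 231 CD4 cells stood above the 4691 CD8 cells in S1pr1 (75.9 against 30.5 CPM, log2 1.29, 0.74 to 1.85) and in Tcf7 (44.1 against 23.2 CPM, 0.90, 0.15 to 1.62). Cxcr6 did not differ beyond counting error (299 against 274 CPM, 0.12, −0.15 to 0.39), and Gzmb stood at 2756 CPM in CD4 and 5077 CPM in CD8 (−0.88). Of the 231 CD4 cells 90 (39.0%) still held a single CD8 UMI. In the library labelled liver TIL S1pr1 was also above (1.72, 0.07 to 3.10, 5 UMIs in 66 CD4 cells), and in the one labelled heart TIL it was not (−0.91, −6.27 to 1.56, 1 UMI in 59 CD4 cells, with no Tcf7 UMI). A Foxp3 UMI, the mark of regulatory T cells, was found in 9 of the 343 cells, too few to divide the members by it.

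Other genes of these programmes were read from 4 hand-written lists in CD8 T cells. Of 20 naive or memory genes, 4 of 13 tested were lower and 1 higher in heart TIL, 7 and 1 of 13 in the library labelled liver TIL, 10 and 2 of 19 in liver PC, 4 and 1 of 12 in kidney TIL and 4 and 1 of 11 in kidney PC. The median log2 ratio of those tested was −0.27, −1.19, −1.10, −0.47 and −0.63 in that order, against 0.30, 0.11, 0.05, 0.11 and 0.03 over all genes; in these medians a gene with no blood UMI stood at its bound, or was left out where it had none. Beside these counts and those of the lists that follow, 8.07%, 8.95%, 9.0%, 10.1% and 16.0% of all genes were lower and 19.2%, 14.3%, 9.30%, 11.3% and 12.9% higher in the same order. Klf3, a relative of Klf2, was lower in all 5 (log2 −4.61 to −1.32), and S1pr4, a second sphingosine-1-phosphate receptor, lay between −1.19 and −0.85 and passed 2-fold in 3 of the 5. Id3, a factor of memory precursor cells, was higher in all 5 (2.20 to 3.24, the liver values against 1 blood UMI), against the direction of the list.

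Of 20 residency and retention genes, 1 of 16 tested was lower and 4 higher in heart TIL, 1 and 4 of 16 in the library labelled liver TIL, 1 and 4 of 19 in liver PC, 4 and 1 of 9 in kidney TIL and 2 and 1 of 6 in kidney PC, with medians of 0.25, 0.26, 0.34, −0.26 and −0.45. Xcl1, a chemokine gene, was higher in all 5: at least 39.6-fold in heart TIL, where heart PBMC had no UMI, and at log2 2.78 to 5.29 in the others, the liver values against 3 blood UMIs. Rgs1, a brake on chemokine receptor signals, was higher in heart TIL (2.79), the library labelled liver TIL (2.55) and liver PC (2.75) and lower in kidney TIL (−1.69) and kidney PC (−3.17, from 2 UMIs). Of 15 effector genes, 14 tested in heart and liver and 12 in kidney, 1, 3, 1, 5 and 5 were lower and 2, 2, 3, 2 and 1 higher in the same order of comparisons, with medians of 0.20, −0.06, −0.06, −0.60 and −0.43. Ifng, the interferon gamma gene, was higher in all 5 (1.48 to 4.23, the liver values against 3 blood UMIs), and Klrg1, a marker of terminal effector cells, was lower in all grafts but heart (−3.45 to −2.09, heart −0.53). Prf1, the perforin gene, was higher in the library labelled liver TIL (1.58), liver PC (2.04) and kidney TIL (1.06). Gzmb was lower in kidney TIL (−1.39) and kidney PC (−2.28) and higher in liver PC (1.21). It was at 0.62 and 0.66 in the libraries labelled heart and liver TIL. Of the ligands and partners, 16 of which the tables list, 2 of 11 tested were lower and 3 higher in heart TIL, 1 and 2 of 11 in liver TIL as labelled, 2 and 1 of 12 in liver PC, 2 and 1 of 7 in kidney TIL and 2 and 1 of 5 in kidney PC (medians 0.07, 0.20, 0.15, −0.25 and 0.11). Il2rg, the shared chain of the IL-7 receptor, stayed between −0.25 and 0.46. Jak1, a kinase of that receptor, was lower in both kidney grafts (−1.02 in TIL, −2.65 in PC) and at −0.47 to −0.15 in the others.

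With the labels of heart and liver TIL exchanged, the genes lower and higher were 4 and 1 of 12 (heart) and 9 and 1 of 13 (liver) in the naive or memory list, 1 and 6 of 17 and 3 and 4 of 16 in the residency list, 3 and 3 of 14 in both organs in the effector list, and 1 and 3 of 11 and 3 and 1 of 12 among ligands and partners. With the labels exchanged, 7.48% of all genes were lower and 20% higher in heart TIL, and 12.0% were lower and 13.3% higher in liver TIL. Of the named genes, S1pr4 (−1.0) and Itgb7 (−1.28) then passed 2-fold lower in heart TIL, and Klrg1 turned to 0.35 there. Rgs1, Xcl1, Ifng and Id3 stayed past 2-fold higher, Prf1 stayed so in liver alone, and Klf3 stayed lower. Gzmb was at 0.02 in heart TIL and passed 2-fold higher in liver TIL (1.26).

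Over the 11 gated T cell populations with at least 50 cells, 8 of CD8 and 3 of CD4 cells, members were set against 2801 genes with a mean of at least 50 CPM, by Pearson's r of log2(CPM + 1). These populations share libraries, depth and, in part, cells, so the values are a description. The gene most like S1pr1 was Rasa3 (r = 0.97), followed by Jak1 (0.95) and Bcl10 (0.95). Klf2 was most like Glipr2 (0.87), Ccr7 like Pdlim1 (0.88), Il7r like Hp1bp3 (0.93), Tcf7 like Bfar (0.93), Lef1 like Ss18 (0.94), Cxcr6 like Clec12a (0.98) and Cd69 like Tuba1a (0.89). Among the members themselves Ccr7 was most opposed to Cxcr6 (−0.71, and −0.75 without kidney PC). Kidney PC held no UMI of S1pr1, Il7r or Lef1, and these values lean on it: without it r fell from 0.97 to 0.85 for S1pr1 with Rasa3, from 0.93 to 0.74 for Il7r with Hp1bp3 and from 0.90 to 0.62 for Il7r with S1pr1.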

How the data were processed

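The authors captured single cells by Microwell-seq, filtered reads with the Drop-seq tools, mapped them to GRCm38 by STAR, kept only reads with 1 position and collapsed near-identical UMIs. The deposited tables hold UMI counts without normalization, 10000 barcodes in each of 8 libraries, with 3418722 to 19171264 UMIs per library. STAR and bcl2fastq are named in the submitters' processing notes, and the release of the GENCODE annotation and the strand setting are not given in the sources used here.

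Cells with at least 500 UMIs were gated (CD8 T: Cd8a and Cd8b1 at least 2 UMIs; CD4 T: Cd4 at least 1 and CD3 at least 1; myeloid: at least 3 UMIs of 7 markers and none of CD3, CD8, Cd4 or 4 B markers). The myeloid gate does not leave out neutrophils. Doublets were not called; the deepest 5% of cells were left out as an alternative. UMIs were summed per library and population and divided by the sum over all genes (CPM), with exact Poisson 95% intervals. Ratios added 1 CPM, with an interval from the exact binomial split of both counts; a count of 0 was taken as 3 UMIs per library and gives a bound. A gene needed 20 UMIs over both libraries to be called at 2-fold, and a population needed 50 cells. Shares used cells thinned to 500 UMIs (seed 0) with exact Clopper-Pearson intervals. The split by Gzmb was made on thinned counts, and its CPM and ratios used the full counts of the cells. The calls, the ratios with their intervals and the thinning were tested on simulated data. The gates, splits, orders of libraries, correlations and motif search were not. PCR and cell capture are not covered by these intervals. The 9 members and the 4 lists were chosen with earlier results of these data known. Named list genes were those past 2-fold in the same direction in liver PC and kidney TIL, or, where fewer than 3 were, the 3 with the largest sums, with the 3 genes most like each member; Gzmb was named after its values were seen. A gene of the naive or memory list counts in its totals and is not reported here by name. Gene positions come from GENCODE vM21 on GRCm38, and promoters from RefSeq on GRCm38.p6. Python 3.11.15, numpy 2.4.6, scipy 1.17.1 and matplotlib 3.10.9 were used.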

Additional observations from a re-analysis of the deposited data

Results flagged for a closer look

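Rgs1, a regulator of chemokine receptor signalling that is on the residency list, went opposite ways between organs in CD8 T cells: it was past 2-fold higher in every heart and liver graft library and past 2-fold lower in both kidney grafts. Its log2 ratio to blood was 2.79 in heart TIL, 2.55 in the library labelled liver TIL and 2.75 in liver PC, against −1.69 in kidney TIL and −3.17 in kidney PC. Kidney PBMC held 134 CPM of Rgs1, heart and liver PBMC 32.2 and 34.0 CPM. Bhlhe40, a transcription factor of the same list, was at 2.27 in the library labelled liver TIL and 1.83 in liver PC, from 3 UMIs in liver PBMC, and at −1.66 in kidney TIL, from 7 UMIs there. With the labels of heart and liver TIL exchanged, Rgs1 was at 2.63 in heart and 2.71 in liver TIL, and Bhlhe40 at 1.29 and 1.97. Neither difference between organs was tested, since each group is 1 library.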

How the results depend on the processing

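Of 614 log2 ratios of members recomputed under the alternatives, 562 stayed within the counting interval of the reported value or bound. Of the 614, 22 turned direction, 6 of them from a called value. Of 164 counts of members, 139 stayed within 1.5 times, counts of 0 that stayed at 0 included. The limit of 10% mitochondrial UMIs removed no CD8 T cell and so repeats the reported ratios and counts. Dropping the minimum UMI sum changes only which genes are called and repeats the ratios. These totals hold those repeats. From here on, a percentage after a count is the share of all genes called the same way. Gating and summing on thinned counts, which cuts liver PBMC to 85 CD8 T cells, left 2 members lower in the library labelled liver TIL (8.01%). It left 1 lower in liver PC (9.51%), 1 in kidney TIL (7.80%) and 0 in kidney PC (12.2%), with 1 higher in liver PC (12.4%). Then 2 members did not overlap between blood and grafts (Klf2 and Lef1), with no share of all genes computed. S1pr1 turned to 0.28 in liver TIL as labelled and 0.80 in liver PC, and Il7r to 0.17 in liver TIL as labelled. Some of these calls ended on UMIs alone: Ccr7 was at −4.33 in liver PC (8 and 9 UMIs) and −1.98 in kidney PC. Leaving out cycling cells left 1 member lower in kidney TIL (9.03%) and 0 in kidney PC (15.6%), again below 20 UMIs, with kidney TIL ratios of −3.31 for S1pr1 and −3.06 for Klf2. In that setting 1 member was higher in heart TIL (26.5%) and 1 in liver PC (14.2%). At least 1000 UMIs per cell, or exchanged TIL labels, left 2 lower in heart TIL (8.36% and 7.48%). Requiring a CD3 UMI, or leaving out shared barcodes, gave 1 higher in kidney PC (12.5% in either setting). The next settings were chosen after seeing the data. Cells with a Gzmb UMI gave 3 lower in the library labelled liver TIL (8.25%) and 0 in kidney TIL (9.29%). In kidney TIL only Cxcr6 reached 20 UMIs, and Tcf7 was at 0.37 (4 UMIs against 0). Cells without a Gzmb UMI gave 1 higher in heart TIL (32.6%). Barcodes with at least 200 UMIs gave 7 lower in kidney TIL (10.2%) and 1 higher in kidney PC (15.7%). With the TIL labels exchanged as well, cells with a Gzmb UMI gave 2 lower in heart TIL (7.33%) and 0 higher in liver TIL (11.1%). They turned Ccr7 to 0.31 and Il7r to 0.54 in heart. Cells without a Gzmb UMI then gave 1 higher in heart (28.7%) and 3 lower in liver TIL (8.95%). Leaving out cycling cells with exchanged labels gave 2 lower (8.46%) and 1 higher (23.5%) in heart TIL. The cause was not tested. Populations under 50 cells gave no value for kidney PC at 1000 UMIs or with a Gzmb UMI, nor for 4 of the 5 comparisons when cells with B or myeloid UMIs were left out. The CD4 alternatives, the one without Foxp3 cells included, were not run, since blood held at most 22 CD4 cells. Ratios pair graft and blood by organ. No paired analysis by replicate number was made, since the labels give no replicate numbers and no result comes from a test. At this depth Itgae reached 20 UMIs in no comparison, and Il7r and Lef1 in neither of kidney.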
